A study of Homo sapiens with 8 samples.

Results

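Alternative last exons are sets of terminal exons within a gene, each with its own poly(A) site, of which a transcript carries only 1. Genes were taken as members when their spliced reference transcripts (RefSeq mRNAs and noncoding RNAs on the autosomes and the X chromosome) had 3′ ends at least 1000 nt apart and last exons that did not overlap. Transcripts of a gene were grouped by overlapping last exon, and FPKM (fragments scaled to transcript length and to the number of mapped fragments) was summed for each group in each library. A gene was kept at a mean of 1 FPKM or more over the 8 libraries. This gave 706 genes of the 10587 with spliced reference transcripts at that level, and they held 1489 last exons and 2629 transcripts. A further 4111 genes at that level had several spliced reference transcripts without meeting the rule on last exons. The mean FPKM over all libraries chose the members, so their levels are a description, whereas the split of FPKM between last exons and its differences between groups were not used. At the threshold, ZNF345 (1.01 FPKM), ZNF407 (1.02) and ZNF519 (1.05) lay just inside, and FLJ35390 (0.983), PTGER3 (0.969) and APBB1 (0.966) just outside. For distance, TUBGCP5 (1108 nt), FAM83A (1111 nt) and FKBP11 (1167 nt) lay just inside, and TPM2 (933 nt), TKT (930 nt) and TMEM80 (897 nt) just outside.

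The study asked how expression and splicing change when SF3B1, a subunit of the U2 snRNP that binds near the branch point, is expressed in mutant or wild-type form. K562, an erythroleukaemia cell line, carried an inducible transgene for SF3B1-K700E or for SF3B1-WT, and each line was sampled with and without induction by doxycycline (1 ug/ml, 48 hours), with 2 libraries in each of the 4 groups. The libraries are called induced or uninduced K700E and WT libraries 1 and 2 here. Total RNA was depleted of ribosomal RNA before library preparation. The labels do not say whether the libraries of a group came from separate cultures, so p-values measure the spread between these libraries, which may be technical. They also do not say whether each line was 1 clone, and the cells' own SF3B1 remained in all groups.

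The last exon of a transcript is defined by its 3′ splice site and by cleavage and polyadenylation downstream. An upstream last exon is used when a poly(A) site inside the gene is cleaved before the downstream exons are joined, either in an exon lying wholly within an intron of the longer transcripts or through read-through of an internal exon past its 5′ splice site. The choice changes the carboxyl terminus of the protein as well as the 3′ UTR.

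Sequences at the splice junctions into the last exons are shown for genes on which the results below turn. Where the upstream last exon lies within an intron, the junction tells the transcripts apart. An extended internal exon shares its acceptor with distal transcripts, so its upstream junction alone does not. Each run is 30 bases, 5′ to 3′ on the transcript, with the last 15 bases of the exon before in lower case and the first 15 bases of the last exon in capitals. They come from GENCODE release 29 transcripts (GRCh38) matched by RefSeq accession, whereas all coordinates in the text are those of hg19 in the deposited files. Of the 1489 last exons, 1352 (90.8%) had a matched transcript. Matched last exons could differ in length from those quantified, and 464 had the same length. Among those printed, the differences were largest for NPM1 and for KLC1 upstream. The matched NPM1 exons were 729 nt upstream and 611 nt distal, against 331 and 358 nt. The matched KLC1 upstream exon was 1280 nt, against 594 nt.
CDC42 upstream: tctgcacttacacagAGAGGTCTGAAGAAT
CDC42 distal: tctgcacttacacagAAAGGCCTAAAGAAT
RPS3 upstream: cccacagcataacagGGTCTCCTTGGCAGC
RPS3 distal: cccacagcataacagCCTCTTCCATGAGTG
DNAJB6 upstream: aatcactacaaagagAATTGTCGAGAACGG
DNAJB6 distal: tcgcgtccgcagcagGATTGAAAGAAGGTG
ZC3HAV1 upstream: agctgagtttccaagGGATGATTCAGACAA
ZC3HAV1 distal: acaaatacggaaaagGAATTTACTTTGCAA
GART upstream: gtgtagagataacagGGTTTCCTGAGGCTC
GART distal: gtacactttgtagctGAAGATGTGGATGCT
KLC1 upstream: gctcagcgtcccatgGCCTAGCCGCCCGTG
KLC1 distal: gacgccaccgctaacTGACCCCGACCTGGC
NPM1 upstream: gcaagtatagaaaaaGCGCATTGAACAGTC
NPM1 distal: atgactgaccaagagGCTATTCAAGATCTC
In CDC42 and RPS3 the upstream last exon lies within an intron of the distal transcripts, and the lower-case runs are the same: 1 exon is joined to either of the last exons. In DNAJB6, ZC3HAV1 and GART the upstream last exon is an extended internal exon, so the lower-case runs differ. KLC1 and NPM1 have upstream last exons within an intron too, but there the lower-case runs differ, since the transcripts shown join the last exons to different exons.

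Most members had a simple layout. There were 638 genes with 2 last exons, 60 with 3, 7 with 4 and 1 with 5. The largest distance between 3′ ends in a gene had a median of 13579 nt and ranged from 1108 to 933971 nt. Of the 783 upstream last exons, 395 (50.4%) lay within an intron of the distal transcripts, 382 (48.8%) used the acceptor of an internal exon, and 6 overlapped an internal exon in another way. Distal last exons were longer, with a median of 1409 nt against 757 nt upstream. In 670 genes (94.9%) an upstream and a distal transcript had overlapping first exons. Of all last exons, 17 overlapped an exon of another gene on the same strand and 87 on the opposite strand.

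The poly(A) signal was looked for as AATAAA or ATTAAA on the transcript strand in the last 50 nt of the 947 matched transcripts whose last exon was within 20 nt of the length in the files. One of these hexamers was present in 332 of 432 distal ends (76.9%) and in 415 of 515 upstream ends (80.6%). Among upstream ends the share was 80.8% for exons within introns and 80.3% for extended internal exons. Over all 36816 GENCODE transcripts matched to a RefSeq mRNA, whatever their last exon, 66.7% held one. This wider set was not held to the limit of 20 nt, so its share is not a like background.

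SF3B1 itself was at 28.7 and 39.0 scaled FPKM in induced K700E, 33.3 and 30.7 in uninduced K700E, 36.5 and 26.9 in induced WT, and 37.7 and 31.3 in uninduced WT. The 4 groups overlapped, and the limma estimate for K700E induction was a log2 change of 0.06 ± 0.37 (SE, adjusted p = 1). The total level does not separate transgene from endogenous transcripts, so the state of induction rests on the labels. The files give FPKM and not counts; fragment coverage was 3.30 to 4.79 per FPKM in the 8 libraries. All 10 erythroid markers were above 0, with sums of 6133 to 13510 scaled FPKM, and the highest sum was in an uninduced K700E library. Sums of the 6 myeloid markers were 10.7 and 12.1 in induced K700E against 34.7 to 63.6 in the other libraries, with 4 of 6 above 0 in any library. Sums of the 6 lymphoid markers were 8.26 to 60.9, with 4 of 6 above 0 in any library. Those of the 7 stromal and epithelial markers were 424 to 1149, highest in the uninduced K700E libraries. KRT8 and KRT18 made most of these last sums (605 and 508 scaled FPKM in uninduced K700E 1). EPCAM was at 8.16 to 39.8, COL1A1 at 0.67 to 11.6, and COL1A2, CDH1 and PECAM1 at 3.47 or less. The part of these differences in the results below was not tested.

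In most genes a library gave FPKM to only 1 side of the choice. Of 4975 gene-by-library values with the gene above 0, the distal last exon held over 99% in 44.3%, under 1% in 27.9%, and a share between these in 27.8%. The remaining 673 values (11.9%) had all spliced reference transcripts of the gene at 0. This is often not a gene at 0: in 63.6% of these values (428) assembled spliced transcripts assigned to the gene were above 0. In the rest, these were at 0 too. Levels and shares below are those of the spliced reference transcripts unless they are called scaled FPKM, which also counts the assembled ones. A total of 44 genes were all distal in all 8 libraries and 29 had no distal FPKM in any of them. Both sides were used in all 8 libraries in 11 genes.

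**Figure D1:**
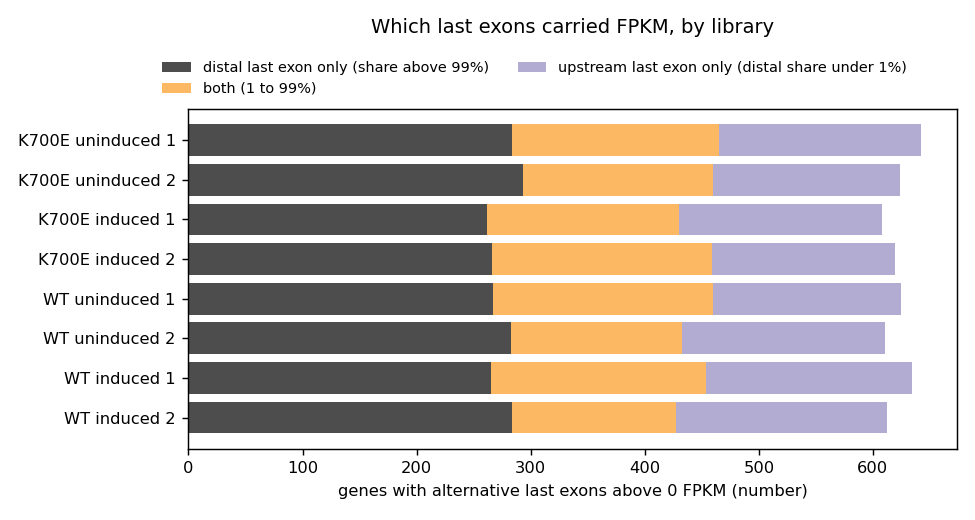
Number of genes with alternative last exons (x axis) in each of the 8 libraries (rows) whose FPKM lay on the distal last exon alone (share above 99%), on both sides (1 to 99%) or on upstream last exons alone (distal share under 1%). Genes using both sides numbered 143 to 193 of 608 to 642 genes above 0, fewer than the genes on the distal last exon alone in every library.

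The all-or-none values were not stable between libraries. In 250 genes (35.4%) the distal last exon held over 99% of FPKM in at least 1 library and under 1% in at least 1 other, and 63 of these genes had a mean of 10 FPKM or more. The share of values with both sides used rose with the level of the gene: 17.0% at a mean of 1 to 5 FPKM (225 genes), 28.5% at 5 to 20 FPKM (315 genes) and 38.3% at 20 FPKM or more (166 genes). Distal shares correlated across genes with a mean r of 0.533 over the 4 pairs of libraries within groups and 0.548 over the 24 pairs between groups. Genes are not independent replicates, and these values show libraries of a group no closer to each other than to the rest. By contrast, the deposited confidence interval of member transcripts at 10 to 100 FPKM had a median half-width of only 6.88% to 7.73% of the value.

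Among genes well known to end in alternative last exons, 20 of 36 listed were members, and 15 of these 20 had a ratio in the tested table (a mean share of 5 to 95%). In the signalling and cytoskeleton list, 4 of 10 were members. CDC42, a small GTPase with a ubiquitous and a brain form, used its distal last exon alone (chr1:22417921-22419436) at 95.3 to 180 FPKM, and the brain form's exon (chr1:22416436-22417296) was listed at 0 in all 8 libraries. ITSN1, an endocytic scaffold with a neuronal long form, had the long form's last exon listed at 0 in all 8 libraries and its short form at 0 to 5.25 FPKM.

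LMNA encodes lamin A through its distal last exon (chr1:156108871-156109880) and lamin C through an upstream one (chr1:156107445-156107657). The distal share was 100% and 37.7% in induced K700E, 38.0% and 38.8% in uninduced K700E, 31.6% and 31.5% in induced WT, and 41.2% and 47.3% in uninduced WT. Lamin C carried more FPKM than lamin A in 7 of 8 libraries, and the exception, induced K700E library 1, listed lamin C at 0. The log2 change of the distal ratio on K700E induction was 3.97 ± 3.38 (SE, limma adjusted p = 0.971), and that library alone lay far from the other 7. KLC1, a kinesin light chain, had distal FPKM (chr14:104167538-104167888) of 0 and 2.62 in induced K700E, 2.91 and 23.5 in uninduced K700E, 8.60 and 0 in induced WT, and 25.1 and 25.7 in uninduced WT. Its upstream last exon (chr14:104151975-104152568) was at 13.8 and 16.3, 5.24 and 0, 11.2 and 24.0, and 0 and 0 FPKM in the same order. The uninduced WT libraries were all distal and the induced WT libraries were not, so these groups did not overlap.

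The RNA processing and antiviral list had 5 of 8 members. DNAJB6 is a cochaperone of the Hsp40 family with a nuclear long form and a cytosolic short form. Its distal share (chr7:157208710-157210133) was 48.7% and 47.1% in induced K700E, 61.8% and 60.6% in uninduced K700E, 73.8% and 36.1% in induced WT, and 100% and 46.5% in uninduced WT. The K700E groups did not overlap and were each tight, while the WT groups spanned the whole range of the K700E libraries. The limma change of the distal ratio on K700E induction was -0.76 ± 3.46 on the log2 scale (SE, adjusted p = 1).

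ZC3HAV1 encodes the zinc finger antiviral protein, whose long form carries a PARP-like domain. Its distal share (chr7:138728266-138732599) was 43.9% and 56.0% in induced K700E, 100% and 54.4% in uninduced K700E, 60.3% and 100% in induced WT, and 19.3% and 47.6% in uninduced WT. The K700E groups overlapped, the induced WT libraries lay above the uninduced ones, and the 2 values at 100% were libraries with the short form listed at 0. CSTF3, the CstF-77 subunit of the cleavage stimulation factor, has a short form that ends in an extended internal exon (chr11:33162977-33163532). The short form was at 31.4 and 31.5 FPKM in induced K700E, 19.1 and 38.5 in uninduced K700E, 0 and 13.4 in induced WT, and 17.6 and 0 in uninduced WT. Full-length CSTF3 was at 0 to 4.36 FPKM in all 8 libraries, so the short form held most of the gene's FPKM where it was above 0. PAPOLA, a poly(A) polymerase, used its distal last exon at 87.2% or more in every library, and RBBP6, a component of the 3′ end machinery, was all distal in 6 of 8 libraries.

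In the transcription and chromatin list, 8 of 12 were members, all with a ratio. RUNX1, a haematopoietic transcription factor, was all distal in 6 of 8 libraries, and its short form without the transactivation domain was at 29.3 FPKM in induced K700E 2 and 25.3 in uninduced WT 2. THRA, a nuclear receptor for thyroid hormone, lay at 0 to 3.44 FPKM per side, and its distal last exon overlaps an exon of another gene on the opposite strand. MAX, the dimer partner of MYC, has 3 last exons, and the distal one held 12.6 and 30.3 FPKM in induced K700E, 30.6 and 0 in uninduced K700E and 0 in all 4 WT libraries.

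NUP98, a nucleoporin gene that also encodes NUP96 in its long transcript, was all distal in 7 of 8 libraries, and uninduced K700E 2 was all upstream at 16.4 FPKM. CUX1, which encodes a homeodomain protein and the Golgi protein CASP, had distal shares of 73.1% and 0% in induced K700E, 71.2% and 100% in uninduced K700E, 0% and 100% in induced WT, and 79.2% in uninduced WT 2. In uninduced WT 1 its reference transcripts were listed at 0, while the gene with assembled transcripts was at 25.2 scaled FPKM, within the 23.1 to 37.6 of the other libraries. CREM, a cAMP-responsive factor, was all distal in 5 of 8 libraries, and FOXP1, a forkhead factor, had its reference transcripts listed at 0 in both induced K700E libraries and in uninduced WT 1. With assembled transcripts FOXP1 was at 8.21, 8.77 and 4.73 scaled FPKM in these 3 libraries and at 4.61 to 27.2 in the others. None of the ratios of the 8 genes passed the threshold in any comparison. In the erythroid and iron list, 3 of 6 were members. Among its reference transcripts, SLC11A2, the iron transporter DMT1, used its upstream last exon alone in both uninduced groups (0.777 to 5.30 FPKM). In 3 of the 4 induced libraries, FPKM of 4.21 to 10.1 lay on the distal one (chr12:51373566-51375586). With assembled transcripts the gene was at 5.94 and 10.5 scaled FPKM in uninduced K700E and 7.10 and 15.7 in uninduced WT. It was at 8.80 and 16.7 in induced K700E and 18.7 and 19.5 in induced WT. The ends of the assembled transcripts do not enter the use of last exons given here. Induced and uninduced K700E did not overlap for SLC11A2, with a log2 change of the distal ratio of 3.59 ± 3.06 (SE, limma adjusted p = 0.971). SPTB, the spectrin beta chain of the red cell membrane, used its upstream last exon alone (chr14:65233117-65233519) at 13.7 to 27.9 FPKM in 6 libraries, and both induced K700E libraries listed all its spliced reference transcripts at 0. With assembled transcripts SPTB was at 27.6 and 25.6 scaled FPKM in induced K700E, within the 13.5 to 50.1 of the other libraries (log2 change on K700E induction -0.49 ± 0.42, SE, limma adjusted p = 1). EPB41, which encodes protein 4.1R, was all distal at 46.7 to 88.5 FPKM.

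**Figure D2:**
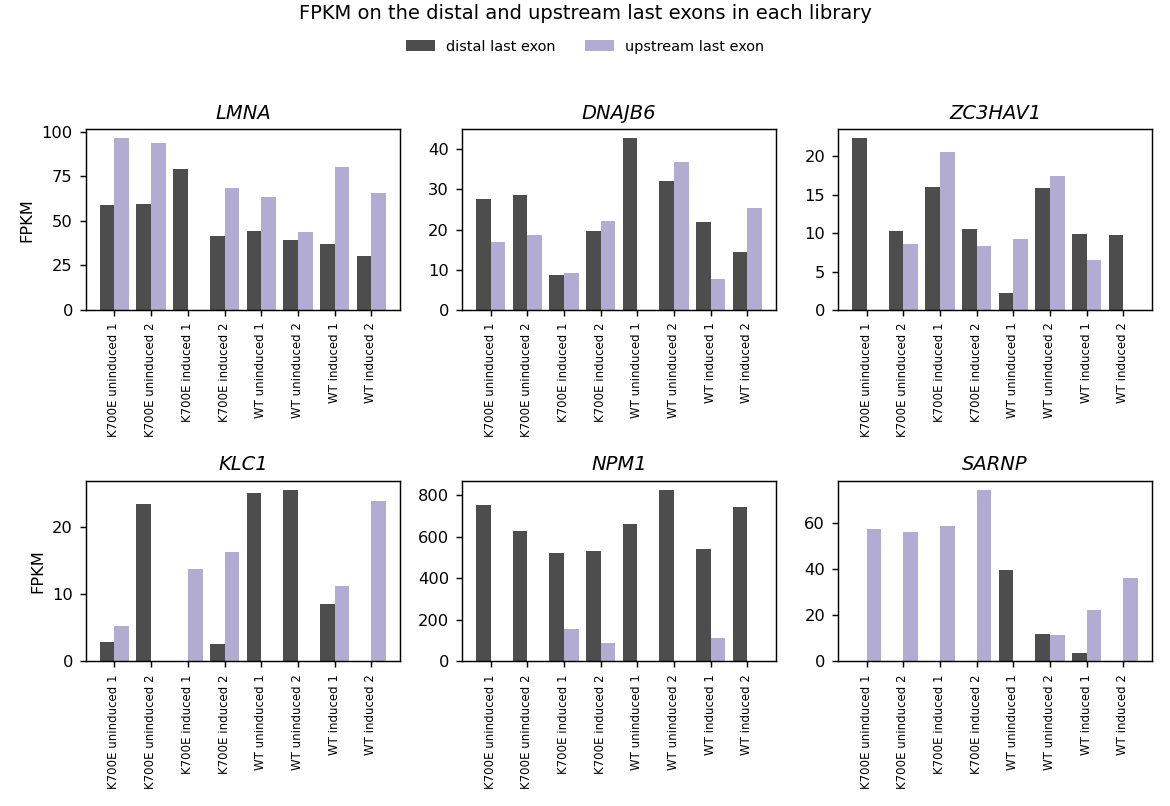
FPKM (y axis) on the distal (dark) and summed upstream (light) last exons in each of the 8 libraries (x axis) for 6 genes, 1 bar per library and side. Within groups, sides listed at 0 in 1 library were used in the other, as for the upstream last exon of LMNA at 0 and 68.1 FPKM in the induced K700E libraries.

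In 11 genes both sides were above 0 in all 8 libraries. The 9 shown here are GART, PDCD2, POLR1D, PPP2R5C, RPS3, SLC38A10, TMEM201, ZAK and ZNF451. TMEM201, a protein of the inner nuclear membrane, had distal shares of 42.3% and 55.3% in induced K700E, 88.1% and 77.9% in uninduced K700E, 64.7% and 59.3% in induced WT, and 58.8% and 75.5% in uninduced WT. The K700E groups did not overlap (48.8% ± 9.13 against 83.0% ± 7.21, SD, n = 2), and the WT groups did. Its log2 change on K700E induction, -2.31 ± 3.26 (SE, limma adjusted p = 0.971), was the most negative of these 11. GART is an enzyme of purine synthesis whose short form carries only the first of its activities, and its distal share was 38.5% and 12.7% in induced K700E against 56.0% and 43.7% in uninduced K700E. The WT libraries lay between 31.2% and 57.8% with overlap. PDCD2 had distal shares of 18.7% and 19.8% in induced K700E, 15.1% and 26.1% in uninduced K700E, 54.2% and 47.1% in induced WT, and 37.1% and 22.8% in uninduced WT. The induced lines did not overlap, with a log2 difference of K700E minus WT of -2.06 ± 3.25 (SE, limma adjusted p = 0.971). ZAK, a kinase of stress signalling, had 81.4% and 37.2% in induced K700E, 90.8% and 80.3% in uninduced K700E, 70.3% and 52.7% in induced WT, and 37.7% and 56.4% in uninduced WT. Its groups overlapped in both inductions and between the induced lines, but not between the uninduced lines, where the log2 difference of K700E minus WT was 2.45 ± 3.11 (SE, limma adjusted p = 0.966). PPP2R5C, a regulatory subunit of phosphatase PP2A, lay between 12.5% and 43.6% in all 8 libraries.

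SLC38A10, an amino acid transporter, had distal shares of 64.2% and 59.7% in induced K700E, 40.6% and 41.0% in uninduced K700E, 56.9% and 45.3% in induced WT, and 11.6% and 31.6% in uninduced WT. In both lines its 2 induced libraries had higher shares than its 2 uninduced ones. The group means were 62.0% ± 3.15 and 40.8% ± 0.213 in K700E and 51.1% ± 8.20 and 21.6% ± 14.2 in WT (SD, n = 2), and the limma adjusted p was 1 on K700E induction and 0.960 on WT induction. RPS3, a protein of the small ribosomal subunit, had 70.6% and 59.8% in induced K700E, 68.9% and 27.1% in uninduced K700E, 47.9% and 31.4% in induced WT, and 74.3% and 66.1% in uninduced WT. The K700E groups overlapped, and the change on K700E induction switched sign without uninduced K700E library 2. Both induced WT libraries lay below both uninduced ones, with a log2 change of -1.87 ± 2.67 (SE, limma adjusted p = 0.953).

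**Figure D3:**
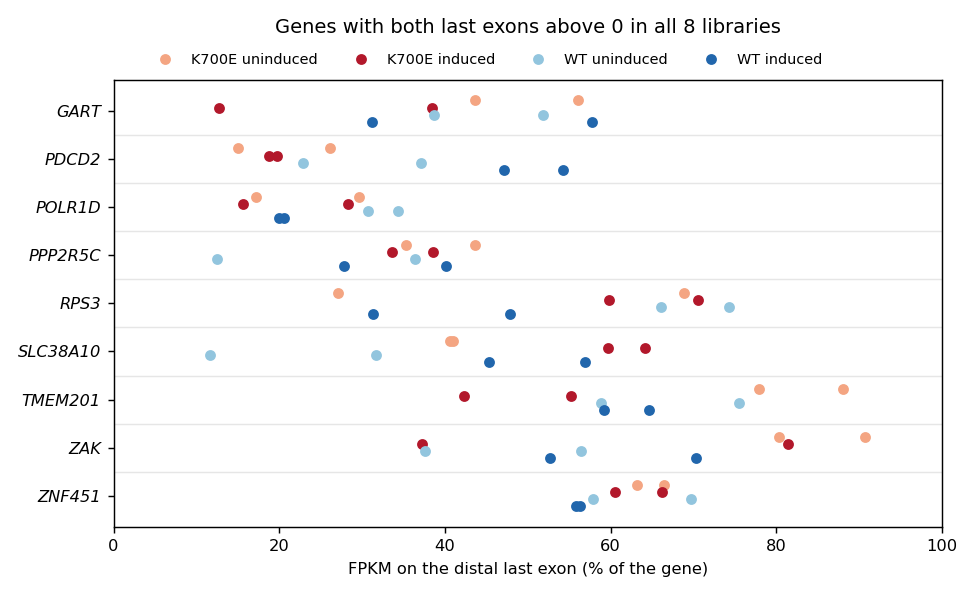
Percent of the gene's FPKM on the distal last exon (x axis) for 9 of the 11 genes with both sides above 0 in all 8 libraries (rows), 1 point per library, coloured by group. TMEM201 lies at 42.3% and 55.3% in induced K700E and at 88.1% and 77.9% in uninduced K700E, whereas ZNF451 lies at 55.8% to 69.7% in all 8 libraries.

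For the comparison of induced with uninduced K700E, the ratio of each last exon to the rest of the gene was tested in 574 ratios of 500 members within a table of 7814 ratios of all genes with several spliced reference transcripts (limma on log2 ratios with 0.5 FPKM added to each side, Benjamini-Hochberg adjustment over the table). No member passed an adjusted p of 0.05, and 0% of the whole table did. At an unadjusted p under 0.05 there were 8 members (1.39%), against 4.38% of the whole table. The smallest adjusted p of a member was 0.971. The median SE of a member's difference was 3.13 on the log2 scale, and it rests on a prior variance shared with genes whose share moved between 0 and 100%. Fitted only with ratios that had both sides above 0 in all 8 libraries (42 ratios, 11 of them of members), the members' SEs were 0.41 to 0.99. No member passed there either, and 2 of the 11 had an unadjusted p under 0.05. TMEM201 was at -2.31 ± 0.62 (SE, limma unadjusted p = 0.00332, adjusted p = 0.140) and ZAK at -1.70 ± 0.68 (SE, limma unadjusted p = 0.0299, adjusted p = 0.314). Such values were not confined to K700E induction: the same fit gave 2 on WT induction, 3 in the interaction and 1 in each comparison of the lines. Those on WT induction were SLC38A10 and RPS3 (limma unadjusted p = 0.012 and 0.047). ZAK had its smallest p without induction, where K700E minus WT was 2.45 ± 0.68 (SE, limma unadjusted p = 0.00411, adjusted p = 0.173). With induction that difference was -0.04 ± 0.68 (SE).

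NPM1 and CEP76 were among the 3 genes with the smallest p on K700E induction. NPM1, a nucleolar chaperone, had upstream FPKM (chr5:170833401-170833731) of 158 and 89.0 in induced K700E, 0 in both uninduced K700E libraries, 112 and 0 in induced WT, and 0 in both uninduced WT libraries. The distal last exon (chr5:170837531-170837888) held 523 to 829 FPKM in all 8 libraries. Upstream use was thus listed in 3 of 4 induced libraries and in none of the uninduced, and the log2 change of the distal ratio was -8.28 ± 2.84 (SE, limma unadjusted p = 0.00922, adjusted p = 0.971). NPM1 has processed copies in the genome, so its reads can be shared with them. CEP76, a centriolar protein, had reference transcripts above 0 in only 4 libraries (assembled ones were above 0 in 3 of the other 4), and its distal noncoding form was at 12.4 and 2.36 FPKM in induced K700E and at 0 in the others.

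As a description of all distal ratios, 273 of 487 members had a lower distal ratio in induced than in uninduced K700E and 212 a higher one, with a median log2 difference of -0.29. Both induced libraries lay below both uninduced ones in 95 members (19.5%, against 16% of the whole table) and above in 56 (11.5%, against 15.8%), and the 2 directions together made 151 (31.0%, against 31.8%). Of the 7814 ratios in the table, 3986 (51%) are mirrored pairs of genes with 2 transcripts outside the rule. These hold the table's median near 0 and its shares above and below near equal, so the table gives no background for a direction of distal ratios, in this or the other comparisons. Genes whose upstream last exons lay within introns had a median of -0.48 (135 of 222 lower), and those with extended internal exons -0.11 (124 of 239 lower). On WT induction these medians were 0.05 and -0.05. Those of K700E minus WT were 0.12 and 0.26 between the uninduced lines, and -0.18 and 0.14 between the induced lines. Genes at a mean of 20 FPKM or more had a median of -0.59 (75 of 112 lower). Those at 5 to 20 FPKM had -0.16 (115 of 221 lower) and those at 1 to 5 FPKM -0.19 (83 of 154 lower). At 20 FPKM or more the median of K700E minus WT was 0.39 between the uninduced lines and 0.08 between the induced lines.

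The median distal share over members above 0 was 62.7% and 63.4% in induced K700E, 70.1% and 73.8% in uninduced K700E, 59.8% and 71.4% in induced WT, and 65.8% and 73.5% in uninduced WT. The K700E groups did not overlap (63.1% ± 0.465 and 72.0% ± 2.61, SD, n = 2), the WT groups did (65.6% ± 8.20 and 69.6% ± 5.44), and the lowest of all libraries was an induced WT library. In genes with upstream last exons within introns, the induced K700E libraries had the lowest values of the 8, 43.2% and 48.7% against 57.1% to 69.5% in the others. In genes with extended internal exons the induced K700E libraries, at 100% and 90.0%, lay within the range of the others, 70.5% to 100%.

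**Figure D4:**
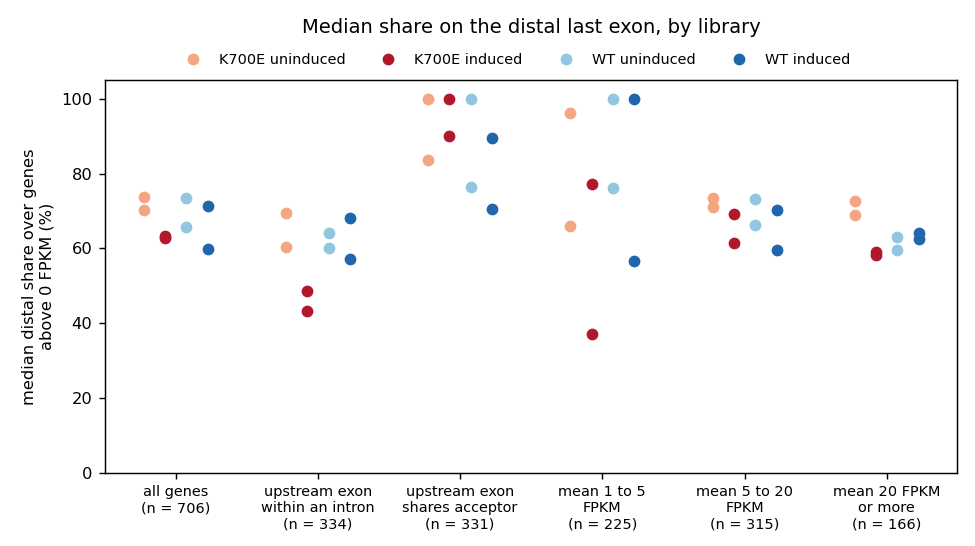
Median percent of FPKM on the distal last exon over genes above 0 (y axis) in each library (points, coloured by group), for all 706 genes, by the type of upstream last exon and by mean FPKM (x axis). The induced K700E libraries are the lowest 2 points for upstream exons within introns (43.2% and 48.7%). They are also the lowest for genes at 20 FPKM or more (59.0% and 58.4%), where uninduced WT 2 lies close at 59.5%. For extended internal exons they lie among the others, and for genes at 1 to 5 FPKM they lie far apart (37.1% and 77.1%).

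For induced against uninduced WT, no member passed an adjusted p of 0.05 (0% of the whole table), and 10 (1.74%) had an unadjusted p under 0.05, against 5.06% of the table. Distal ratios were higher in 242 members and lower in 244, with a median of -0.02. Both induced libraries lay above both uninduced ones in 74 members (15.2%, against 15.4% of all ratios) and below in 79 (16.2%, against 14.7% of all ratios), or in 153 either way (31.4%, against 30.1%). KLC1, described above, was among the 3 smallest p (log2 change of the distal ratio -8.68 ± 3.51, SE, limma adjusted p = 0.931), with N6AMT1 and SETD4, both genes of the methyltransferase families. N6AMT1 was at 5.49 and 2.78 FPKM on its distal noncoding form in uninduced WT and at 4.35 and 2.28 FPKM on its upstream last exon in induced WT, each with the other side at 0, with its reference transcripts listed at 0 in all 4 K700E libraries. The sides did not overlap at these low levels, and the adjusted p was 0.931 with limma.

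Between the induced lines, no member passed (0% of the table), and 7 (1.22%) had an unadjusted p under 0.05, against 4.76% of the table. Distal ratios were higher in induced K700E in 240 members and lower in 246, with a median of -0.02. Groups did not overlap in 74 members in the higher direction (15.2%, against 15.8% of all ratios) and in 86 in the lower (17.7%, against 16.4% of all ratios), or in 160 either way (32.9%, against 32.2%). NEK2, a mitotic kinase, has 3 last exons, and its distal one (chr1:211831599-211832054) held all 30.5 FPKM in induced K700E library 1 and none in the other 7 libraries, which had 10.4 to 32.7 FPKM on the upstream last exons. The NEK2 ratio named for its small p was that of the middle last exon (chr1:211836114-211836994). It held 32.1% ± 45.4 in induced K700E and 100% in the other groups (SD, n = 2). Its log2 difference was -8.31 ± 3.42 (SE, limma adjusted p = 0.950). IPP, a kelch-domain protein, was on its upstream last exon in both induced K700E libraries (11.8 and 4.19 FPKM) and on its distal one in induced WT 2 (9.18 FPKM), with induced WT 1 at 0. ZNF407, a zinc finger protein at the edge of the rule on level, was on its distal last exon in both induced K700E libraries (1.01 and 1.11 FPKM) and upstream in both induced WT libraries (0.322 and 3.32 FPKM). The smallest adjusted p of a member was 0.950 with limma.

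Between the uninduced lines, which share their libraries with the induction comparisons, no member passed (0% of the table), and 8 (1.39%) had an unadjusted p under 0.05, against 4.76% of the table. Distal ratios were higher in uninduced K700E in 258 members and lower in 229, with a median of 0.18. Groups did not overlap in 78 members in the higher direction (16.0%, against 15.1% of all ratios) and in 63 in the lower (12.9%, against 15.4% of all ratios), or in 141 of 487 either way, against 30.5% of all ratios. SARNP, a factor of mRNA export, had its distal last exon (chr12:56146247-56146624), that of noncoding forms, at 39.7 and 12.0 FPKM in uninduced WT, 3.75 and 0 in induced WT and 0 in all 4 K700E libraries. Its upstream last exon was at 56.0 to 74.4 FPKM in the K700E libraries and at 0 to 35.9 in the WT libraries. The log2 difference was -10.0 ± 3.47 (SE, limma unadjusted p = 0.00975, adjusted p = 0.946); the distal exon overlaps an exon of another gene on the opposite strand, and whether strand was used in the quantification is not given in the sources used here. PHF14, a PHD-finger protein, was on its distal last exon in both uninduced WT libraries (2.21 and 13.2 FPKM) and on its upstream one alone in the other 6 (0.947 to 3.50 FPKM). CCNL2, cyclin L2, was all distal in both uninduced K700E libraries and at 35.0% and 0% in uninduced WT.

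**Figure D5:**
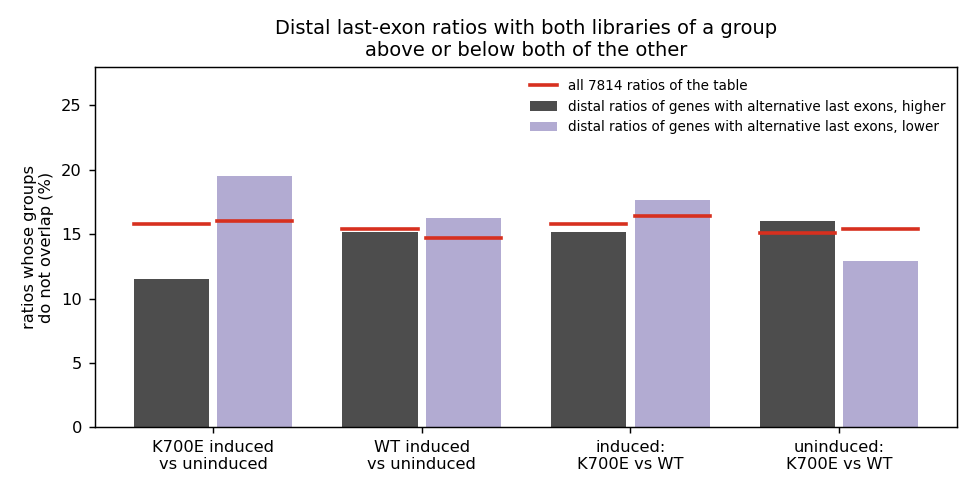
Percent of distal last-exon ratios of members (bars, 487 ratios) in which both libraries of the first-named group lay above (dark) or below (light) both libraries of the second, for 4 comparisons (x axis). Red lines give the same percent over all 7814 ratios; for K700E induction the bars are 11.5% and 19.5% and the lines 15.8% and 16%, which mirrored ratios keep near equal.

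The difference between the 2 inductions, tested as an interaction, gave no member past the threshold (0% of the table) and 3 (0.523%) at an unadjusted p under 0.05, against 4.25% of the table. The smallest adjusted p of a member was 0.938 with limma. The median interaction of the distal ratio was -0.47 on the log2 scale, with 272 members below 0 and 215 above. CREBRF, a regulator of CREB3-family factors, and RC3H2, an RNA-binding protein of the Roquin family, had the smallest p after N6AMT1. CREBRF lay at 0 to 3.32 FPKM per side. RC3H2 was all distal in the 3 K700E libraries above 0 and in both induced WT libraries, and at 39.3% and 0% in uninduced WT.

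The total level of the genes was tested with limma on 11391 genes, of which 705 were members. No member passed an adjusted p of 0.05 in any of the 5 comparisons, where 0.00878% (K700E induction), 0.0176% (WT induction), 0.0351% (induced lines), 0% (uninduced lines) and 0.0263% (interaction) of all genes did. At an unadjusted p under 0.05 there were 28, 28, 32, 38 and 24 members in the same order, or 3.97%, 3.97%, 4.54%, 5.39% and 3.40%, against 4.67%, 4.29%, 5.16%, 4.56% and 4.2% of all genes. Median log2 changes of members lay between -0.09 and 0.06. NPM1 and TMEM201 had gene-level limma log2 changes on K700E induction of -0.07 and -0.98, both with an adjusted p of 1.

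The factors that make or restrain 3′ ends were read at gene level. All 23 genes of the cleavage and polyadenylation list were tested and none passed in any comparison, with medians of 0.06 on K700E induction (13 above 0, 10 below) and -0.23 on WT induction (10 above, 13 below). CPSF3, the endonuclease that cleaves the pre-mRNA, was at 22.4 and 16.9 scaled FPKM in induced K700E, 36.1 and 59.2 in uninduced K700E, 32.5 and 26.7 in induced WT, and 32.8 and 39.3 in uninduced WT. The induced K700E libraries were the lowest of the 8, and the log2 change on K700E induction was -1.23 ± 0.40 (SE, limma unadjusted p = 0.0148, adjusted p = 0.980). CSTF3, also a member, was 2.38 ± 0.81 higher on the log2 scale in induced K700E than in induced WT (SE, limma adjusted p = 0.898). NUDT21, a subunit of CFIm that guides the choice of poly(A) sites, stayed between 37.0 and 51.6 scaled FPKM in all 8 libraries.

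All 15 genes of the list that restrains early polyadenylation were tested and none passed, with medians of -0.31 on K700E induction (7 above 0, 8 below) and -0.16 between the induced lines (5 above, 10 below). The 3 U1 snRNP proteins of the list did not share a direction. SNRPC had a log2 difference of -1.06 ± 0.37 on K700E induction (SE, limma unadjusted p = 0.0211, adjusted p = 0.980), SNRNP70 of -0.31 ± 0.35 and SNRPA of 0.58 ± 0.36 (both SE, limma adjusted p = 1). SNRPC was at 114.1 and 83.9 scaled FPKM in induced K700E and at 105.8 to 156.5 in the WT libraries. In uninduced K700E it was at 284.1 and 146.3, so library 1 stood far above the rest. Between induced K700E and induced WT the differences were -0.50 ± 0.37 for SNRPC, -1.18 ± 0.35 for SNRNP70 and 0.36 ± 0.36 for SNRPA (SE, limma adjusted p = 0.952, 0.841 and 0.958). RTF1, a factor of transcription elongation, had the smallest p of the list between the induced lines, at -1.56 ± 0.42 (SE, limma unadjusted p = 0.00606, adjusted p = 0.807). CPSF3, CSTF3, SNRPC, SNRNP70, SNRPA, RTF1 and NUDT21 were named for their values and fall outside the rule for named genes.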

How the data were processed

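The deposited files are Cufflinks transcript models, 1 per library, each with an FPKM; CASAVA, TopHat, Cufflinks and the build hg19 are named, without versions, in the submitters' processing notes. The authors' FPKM, deposited as other text inside an attribute field, is normalised to transcript length and library size. Reference transcripts were matched between libraries by exon structure, and of 40931, names came from the files (33232), from RefSeq accessions on the same chromosome (7293), or, at gene level alone, from shared introns (289). The members, lists and tests were chosen with earlier results of these data known. Ratios were tested with limma 3.58.1 in R 4.3.3 over all 8 libraries, with log2 of FPKM plus 0.5 on each side, a mean share of 5 to 95% and a prior variance that followed the gene's mean FPKM. These log2 scales understate changes of low genes. In genes outside the rule that have 2 transcripts, both mirrored ratios are in the table. Gene levels were median-ratio scaled FPKM of reference and assigned assembled spliced transcripts. The check that a name lies on its RefSeq chromosome was added after first gene-level results were seen, as was an alternative that joins 174 unspliced assembled transcripts to single-exon genes, with which no member passed either. Named genes were the listed members with a ratio, then per comparison the 6 (K700E induction, induced lines, interaction) or 4 (the others) with the smallest p among genes of 5 FPKM or more with both sides above 0 in all libraries, then the 3 with the smallest p overall. With 2 libraries a group, an exact permutation test of a single value cannot give a two-sided p below 0.333, and none is printed. Replicate numbers were not taken to pair libraries. Differences between replicates 1 and 2 correlated between groups at -0.03 to 0.01 (ratios) and -0.03 to 0.09 (genes). Taken over all genes, these values do not exclude pairing within a line. HBZ was at 1391 and 1447 scaled FPKM in induced and uninduced K700E 1, and at 2341 and 2417 in K700E 2. In WT 1 it was at 2145 and 2432, and in WT 2 at 866 and 906. KLF1 showed no such pairs (73.8 and 98.3, then 118.9 and 78.8, in K700E). The replicate block fitted the same effect in both lines. Some members were fitted with the rest and are not reported here. The fits were tested on simulated data.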

Additional observations from a re-analysis of the deposited data

How the results depend on the processing

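With 2 libraries a group and a median SE of 3.13 (log2), the tests could pass only very large changes of last-exon ratios. Over 99 alternatives of the ratio test (pseudocount 0.1 or 1, no filter or a mean of 5 FPKM, no limit on the share, assembled transcripts added, both sides above 0, 3′ ends 5000 nt apart, another prior, the compared groups alone, the replicate block, each library left out), the count of members called stayed at 0, with a smallest adjusted p of 0.14 in limma and 0 to 47 members at an unadjusted p under 0.05. The replicate block also gave 0 members in every comparison, at gene level too. At gene level, 74 of 75 alternatives gave 0 members; leaving out single libraries gave 0 to 1 on WT induction, the 1 being OR51B5 without uninduced WT library 2. Of 782 alternatives for the 41 named ratios, 2 turned the direction: PPP2R5C in the interaction was 2.28 with assembled transcripts against -1.01, and RPS3 on K700E induction ranged from -0.23 to 2.34 with single libraries left out. The median distal share of induced K700E was 58.9% with assembled transcripts and 62.2% at a mean of 5 FPKM or more, and that of uninduced K700E was 67.1% with assembled transcripts; the cause was not tested.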

Other observations

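Assembled transcripts of the members also ended outside the reference last exons. For these counts, genes with last exons that did not overlap were taken at any level and any distance between 3′ ends. Of 2317 assembled spliced transcripts assigned to them, 1872 ended in 1 known last exon and 431 in none of them. In 232 of the 706 members such other ends were found. They held 5.48% and 3.88% of the members' spliced FPKM in induced K700E, 3.55% and 4.17% in uninduced K700E, 5.76% and 5.98% in induced WT, and 4.35% and 3.13% in uninduced WT. The induced and uninduced WT libraries did not overlap, and the K700E libraries did. These ends were assembled separately in each library, and no test was made.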
